A study of Mus musculus with 8 samples.

Results

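The genes described here carry out DNA replication and mitosis, and 42 of them were followed in a microarray of mouse cells stalled partway through reprogramming. They were taken by symbol: 40 of the 42 had a probe annotated to the listed symbol, out of 19057 symbols on the array, and each was read from its brightest probe by mean intensity over the 8 arrays. Ccnb1 (cyclin B1) and Mki67 (the proliferation marker Ki-67) had no probe with that symbol, so their levels were not analysed here. Of the 40 genes with a probe, 36 lay above an intensity of 16 in at least 2 of the arrays fitted and were tested, among 12886 features (1 probe per symbol, plus probes without a symbol). The 4 that did not pass this filter were Slbp, which binds the stem-loop of histone messages (-18.7 to -11.3 over the 8 arrays), the mitotic cyclin Ccnb2 (-12.7 to 17.6), the checkpoint kinase Bub1 (-14.6 to 12.2) and the kinetochore motor Cenpe (-14.8 to 1.8).

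A cell copies its DNA once per division. Licensing factors load the MCM helicase onto origins in G1, cyclin E and E2F factors drive entry into S phase, and the helicase, sliding clamp, single-strand binding proteins and nucleotide-synthesis enzymes then work at the forks. Cyclin A and cyclin B with Cdk1 bring the cell into mitosis, where Polo and Aurora kinases, motors and kinetochore proteins build the spindle, and the spindle checkpoint holds back the anaphase-promoting complex (APC/C) until chromosomes are attached. Many of these genes are transcribed only in the phase that needs them, S-phase genes largely through E2F sites and G2/M genes largely through CCAAT boxes and CHR elements, and mouse pluripotent cells are known for fast cycles with a short G1.

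RNA was measured on 8 Illumina bead arrays in pre-iPSCs, intermediates that have not reached pluripotency, derived from female neural stem cells of 129/MF1 strain. All carried an Oct4-GFP-IRES-puro reporter, were kept in serum with LIF, and had been transfected stably with PiggyBac vectors whose CAG promoter drives the insert, with selection in hygromycin, blasticidin S or both. The groups were Nanog+Sin3a (both transgenes), Nanog (Nanog with an empty vector), Sin3a (Sin3a with an empty vector) and EV (empty vectors alone), all at day 0, with 2 arrays each. CAG is active in most cell types, the labels do not say whether the drug-selected lines were clonal, or whether the arrays of a group came from separate cultures, so a p-value here speaks only of differences relative to array-to-array scatter. Nanog is a pluripotency transcription factor and Sin3a the scaffold of a co-repressor complex with histone deacetylases.

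The Nanog probe read 289.5 and 285.2 in Nanog+Sin3a and 364.8 and 485.8 in Nanog, against -12.2 to -3.6 in the 4 arrays without that transgene, and the Sin3a probe read 1141.6 to 1484.7 in the 4 arrays with the Sin3a transgene, against 261.8 to 472.5 in the other 4. Sin3a replicate 2 stood apart. Over 13687 features its correlation with Sin3a replicate 1 was 0.799, while the other groups' arrays correlated at 0.985 to 0.994, and 6 of the 15 dimmer genes described here differed by more than 1 log2 unit between the Sin3a arrays (at most 3.57), against 0 of 15 in each other group. None of the 21 bright genes (mean log2 value over 9) differed by that much, the largest gap between the Sin3a arrays being 0.47. Comparisons that did not need the Sin3a group were therefore fitted on 7 arrays without that one, and comparisons with the Sin3a group on all 8 arrays over the 2300 bright features. Among pluripotency markers Pou5f1 (Oct4) read 867.1 to 1167.3 in all arrays and Klf4 119.4 to 263.6, while the other 7 of 9, including Zfp42 and Esrrb, were at or near the floor (at most 39.2). Among 6 neural stem cell markers with a probe, only Nes was above the floor in 7 arrays.

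Of the 36 tested replication and mitosis genes 21 were bright, and their median distance from EV was small in every array. The median over the 36 genes of the difference from the EV mean was -0.09 and -0.08 (log2) in the Nanog+Sin3a arrays, 0.01 and 0.03 in the Nanog arrays, -0.03 and -0.04 in the Sin3a arrays, and -0.01 and 0.01 in the EV arrays themselves. The Nanog+Sin3a arrays lay lowest in this median. Bulk RNA cannot tell fewer cells in a phase of the cycle from less of a message per cell.

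**Figure D1:**
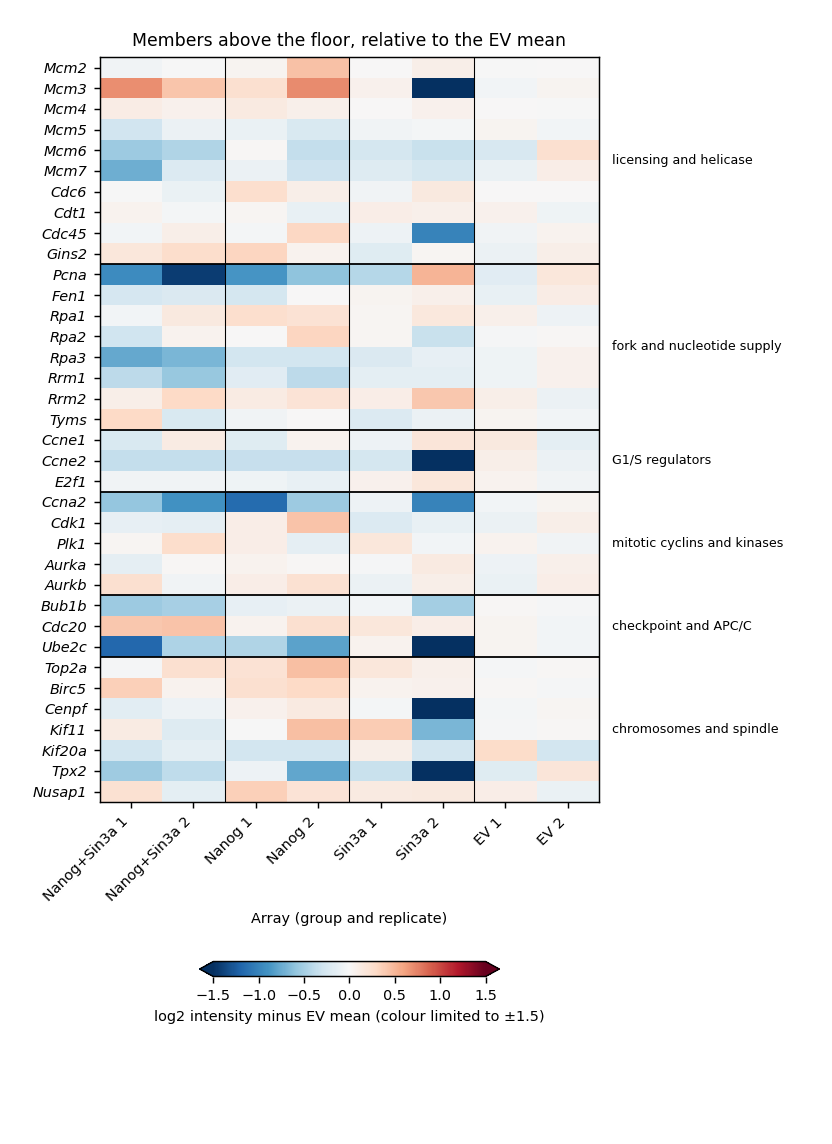
Log2 intensity of the 36 genes above the floor, each minus its EV mean, in the 8 arrays (columns, by group and replicate), with genes in rows by role. Most cells of the map are pale, Pcna and Rpa3 are blue in both Nanog+Sin3a arrays, and the strong colours of Sin3a replicate 2 fall on dim genes.

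With both transgenes, against empty vectors, 4 genes changed: Rpa3, Pcna and Bub1b were lower and Cdc20 was higher in Nanog+Sin3a. They belong to different steps of the cycle, namely single-strand DNA binding (Rpa3), the sliding clamp (Pcna), the spindle checkpoint (Bub1b) and the APC/C activator that the checkpoint restrains (Cdc20). All 4 were called by limma's moderated test over all 12886 features at an adjusted p under 0.05 (Benjamini-Hochberg), which is 11.1% of the 36 genes, and 7.45% of all features tested were called in this comparison. At an unadjusted p under 0.05 the counts were 11 of 36 genes (30.6%) and 26% of all features. The median difference was -0.05 over the 36 genes and 0.01 over all features. In 5 genes both Nanog+Sin3a arrays lay above both EV arrays and in 15 below, that is 13.9% and 41.7% of the 36, while 27.5% of all features did so upward and 26.8% downward. No call of the 4 was kept when either EV array or either Nanog+Sin3a array was left out, where almost no feature was called. Leaving out either Nanog array lost the calls of Pcna and Cdc20, and fewer features were called over the whole array as well. Over the fits that leave out an array, the differences ran from -0.79 to -0.67 for Rpa3 and from -1.43 to -0.94 for Pcna. They ran from -0.54 to -0.49 for Bub1b and from 0.38 to 0.45 for Cdc20. The fit of all 8 arrays called Rpa3 alone, with 0.256% of all features called, and the fit without a filter on low values called Bub1b alone. Over the bright features of all 8 arrays, 5 of the 21 bright genes were called (23.8%), where 17.0% of bright features were called: Rpa3, Bub1b, Rrm1 and Mcm6 were lower and Cdc20 higher.

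The 250 bases before the annotated start of these 4 genes are shown because they are the genes that passed the test. RefSeq (GRCm38.p6) places these windows at chr6:8259142-8259391 (minus strand) for Rpa3, chr2:132253181-132253430 (minus strand) for Pcna, chr2:118597961-118598210 (plus strand) for Bub1b and chr4:118437344-118437593 (minus strand) for Cdc20. Each runs 5′ to 3′ on the gene's strand, and capitals mark matches to the CCAAT box, which reads ATTGG when it lies on the other strand, and to the CHR letters TTTGAA.
Rpa3: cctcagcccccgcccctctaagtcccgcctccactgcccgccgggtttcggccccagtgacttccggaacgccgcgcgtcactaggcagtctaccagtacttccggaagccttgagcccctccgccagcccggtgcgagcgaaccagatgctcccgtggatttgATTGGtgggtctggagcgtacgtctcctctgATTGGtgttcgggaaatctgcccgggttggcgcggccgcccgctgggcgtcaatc
Pcna: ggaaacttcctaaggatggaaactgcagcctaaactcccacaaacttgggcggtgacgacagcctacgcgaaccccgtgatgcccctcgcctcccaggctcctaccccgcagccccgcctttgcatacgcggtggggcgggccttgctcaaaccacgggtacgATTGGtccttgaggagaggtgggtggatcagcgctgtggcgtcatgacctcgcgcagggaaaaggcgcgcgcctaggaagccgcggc
Bub1b: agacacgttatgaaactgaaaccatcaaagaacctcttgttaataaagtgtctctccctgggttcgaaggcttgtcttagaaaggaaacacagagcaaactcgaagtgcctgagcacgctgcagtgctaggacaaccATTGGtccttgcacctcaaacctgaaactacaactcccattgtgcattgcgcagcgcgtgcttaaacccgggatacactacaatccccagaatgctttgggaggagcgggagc
Cdc20: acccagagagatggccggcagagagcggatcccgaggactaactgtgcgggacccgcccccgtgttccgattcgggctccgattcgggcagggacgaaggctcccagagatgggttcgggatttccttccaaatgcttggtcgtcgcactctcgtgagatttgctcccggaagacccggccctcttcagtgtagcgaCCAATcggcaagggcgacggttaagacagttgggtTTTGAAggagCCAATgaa
The 3 genes that were lower hold CCAAT in the ATTGG orientation and no TTTGAA. The last base before the start counts as 1 here. On that count the boxes lie 86 to 82 and 55 to 51 bases upstream in Rpa3, 87 to 83 in Pcna and 113 to 109 in Bub1b. Cdc20, which was higher, holds TTTGAA at 18 to 13 bases and CCAAT at 53 to 49 and at 8 to 4. No E2F letters (TTTCGCGC, TTTGGCGC or TTTCCCGC, either strand) were found in the 4 windows.

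Over the 35 of 42 genes that matched a RefSeq window, Ccnb1 and Mki67 among them, CCAAT was found in 27 (77.1%), against 37.5% of 27025 genes with a window of that length. TTTGAA was found in 10 (28.6%), against 18.3% of all genes, and the E2F letters in 5 (14.3%), against 1.8%. By function, TTTGAA stood before 7 of 16 mitotic genes (43.8%) and 3 of 19 replication and G1/S genes (15.8%). Whether a motif went with the direction of a difference was not tested. TTTGAA stood before genes of either sign in Nanog+Sin3a against EV, such as Ube2c (-0.82), Cdk1 (-0.13) and Top2a (0.11). All searches covered both strands, none of the matches in the printed windows overlap each other, and the motifs were chosen with the values known. A match is a description of these letters and not a bound site.

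Of the genes that license origins and form the replicative helicase, 0 of 10 passed the test in Nanog+Sin3a against EV, where 7.45% of all features did. Their median difference was -0.01. Mcm3, a subunit of the MCM helicase, read 424.3 and 349.4 in Nanog+Sin3a, 310.1 and 427.2 in Nanog, 273.3 and 34.4 in Sin3a, and 253.7 and 269.6 in EV. Both arrays of the groups with Nanog lay above both EV arrays, and the difference of 0.56 (SE 0.18) between Nanog+Sin3a and EV had an adjusted p of 0.109 in limma's test. Mcm6, another subunit of the same ring, read 1220.2 and 1303.3 in Nanog+Sin3a, 1814.8 and 1394 in Nanog, 1488.5 and 1420 in Sin3a, and 1506.6 and 2116.4 in EV. Here the Nanog+Sin3a arrays lay below both EV arrays, which themselves were far apart, and the difference of -0.50 (SE 0.19) had an adjusted p of 0.159 in limma's test. The remaining MCM subunits lay between -0.47 (Mcm7) and 0.09 (Mcm4). Mcm4 read 3469.5 and 3371.3 in Nanog+Sin3a, against 3227.4 and 3195.9 in EV, a small gap with no overlap. The loaders Cdc6 and Cdt1 differed by -0.06 and 0.01, and the helicase partners Cdc45 and Gins2 by 0.02 and 0.22.

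At the forks and in nucleotide supply, 2 of 8 tested genes fell (25%) and 0 rose in Nanog+Sin3a against EV, where 7.45% of all features were called. The median was -0.17, against 0.01 over all features. Whether so small a set differed from all features was not tested. Rpa3, the smallest subunit of the single-strand binding protein RPA, read 821.5 and 871.7 in Nanog+Sin3a, 1160.4 and 1159.7 in Nanog, 1203 and 1290.2 in Sin3a, and 1343.1 and 1464.6 in EV. Its groups did not overlap and ran in that order, lowest with both transgenes and highest with empty vectors. It averaged 847 ± 35.5 in Nanog+Sin3a and 1404 ± 85.9 in EV (SD, n = 2 arrays each). The log2 difference was -0.73 (SE 0.08, 95% interval -0.93 to -0.53, 1.66-fold lower), with an adjusted p of 0.00844 in limma's test. Its partners moved little: Rpa1, the large subunit, differed by 0.06 and Rpa2 by -0.12, neither past the test, so the call covered 1 of the 3 RPA subunits. Whether Rpa3 differed from its partners was not tested.

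Pcna, the clamp that holds polymerases on DNA, read 176.7 and 126.5 in Nanog+Sin3a, 183.7 and 223.3 in Nanog, 252.5 and 484.9 in Sin3a, and 302.3 and 382.4 in EV. Both groups with the Nanog transgene lay below both EV arrays, and the Sin3a arrays lay on either side of EV. Pcna averaged 152 ± 35.5 in Nanog+Sin3a and 342 ± 56.6 in EV (SD, n = 2 arrays each), a log2 difference of -1.19 (SE 0.21, 95% interval -1.68 to -0.69, 2.27-fold lower) with an adjusted p of 0.0262 in limma's test. RefSeq lists the pseudogenes Pcna-ps1 and Pcna-ps2, and whether this probe also reads them was not tested. Rrm1, the large subunit of ribonucleotide reductase, read 849.9 and 755.7 in Nanog+Sin3a, 993.8 and 851.5 in Nanog, 1014.8 in both Sin3a arrays, and 1067.6 and 1174.5 in EV. Like Rpa3 it was lowest with both transgenes, and its difference of -0.48 (SE 0.11) came close to the threshold, with an adjusted p of 0.0562 in limma's test. Another Rrm1 probe read 403.4 and 359.3 in Nanog+Sin3a and 387.3 and 427.6 in EV, which overlapped. Its difference was -0.10 (adjusted p 0.730 in limma's test). The small subunit Rrm2 differed by 0.19, thymidylate synthase (Tyms) by 0.03 and the flap endonuclease Fen1 by -0.23.

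**Figure D2:**
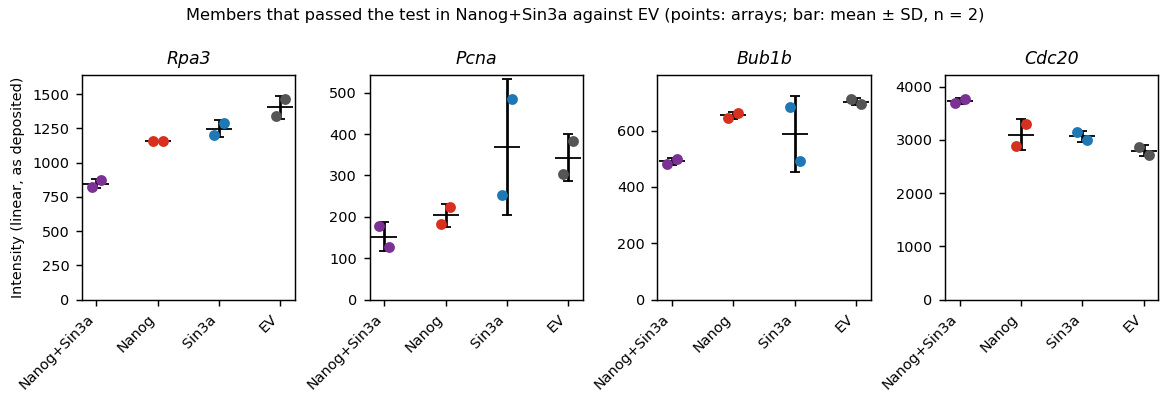
Deposited linear intensity of Rpa3, Pcna, Bub1b and Cdc20 in the 4 groups, with a point per array and a bar for the mean ± SD (n = 2). Rpa3, Pcna and Bub1b lie lower and Cdc20 higher in Nanog+Sin3a than in EV without overlap, and Nanog arrays lie between those 2 groups for each gene.

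None of the 3 regulators of S-phase entry passed the test in Nanog+Sin3a against EV, where 7.45% of all features did. Ccne2 (cyclin E2) read 177.9 and 178.2 in Nanog+Sin3a, 179.4 and 179.1 in Nanog, 189.6 and 15.7 in Sin3a, and 242.1 and 214.2 in EV. The 4 arrays with the Nanog transgene were nearly equal, from 177.9 to 179.4, and below both EV arrays, and the difference of -0.35 (SE 0.11) had an adjusted p of 0.113 in limma's test. E2f1, a transcription factor for S-phase genes, read 492.9 and 495.8 in Nanog+Sin3a, 490.6 and 475.5 in Nanog, 535.6 and 578.9 in Sin3a, and 532.2 and 494.4 in EV. Its Nanog+Sin3a and EV arrays overlapped (difference -0.05, 95% interval -0.26 to 0.16). Ccne1 (cyclin E1) differed by -0.05.

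Mitotic cyclins and kinases gave 0 calls of 5 tested in Nanog+Sin3a against EV, where 7.45% of all features were called. Ccna2 (cyclin A2) read 52 and 41.3 in Nanog+Sin3a, 34.9 and 53.1 in Nanog, 73.9 and 38.7 in Sin3a, and 75.2 and 80.1 in EV. The groups with Nanog lay below EV at these low intensities, and the difference of -0.74 (SE 0.25) had an adjusted p of 0.125 in limma's test. Plk1, the Polo kinase of mitotic entry and exit, read 2208.4 and 2605.1 in Nanog+Sin3a, 2313.4 and 1971.2 in Nanog, 2429.2 and 2098.7 in Sin3a, and 2239 and 2086.4 in EV. Its groups overlapped throughout, with a difference of 0.15 (SE 0.12). The Aurora kinases also overlapped with EV (Aurka -0.06, Aurkb 0.10), and Cdk1, the kinase that drives mitotic entry, differed by -0.13.

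Checkpoint and APC/C genes showed 1 call in each direction among 3 tested (66.7%) in Nanog+Sin3a against EV, where 7.45% of all features were called. Whether so small a set differed from all features was not tested. Bub1b, the checkpoint protein BubR1, read 482.7 and 500 in Nanog+Sin3a, 645.2 and 664.1 in Nanog, 684.8 and 493.2 in Sin3a, and 712.9 and 694.4 in EV. Nanog+Sin3a lay below Nanog and EV in both arrays, while the Sin3a arrays spanned most of the range. It averaged 491 ± 12.2 in Nanog+Sin3a and 704 ± 13.1 in EV (SD, n = 2 arrays each), a log2 difference of -0.52 (SE 0.08, 95% interval -0.71 to -0.32, 1.43-fold lower) with an adjusted p of 0.0194 in limma's test. Cdc20 read 3692.6 and 3769.9 in Nanog+Sin3a, 2889.6 and 3299.7 in Nanog, 3145.1 and 2999.7 in Sin3a, and 2871.2 and 2723.3 in EV. On its other probes the Nanog+Sin3a and Nanog arrays overlapped. On the brightest probe Cdc20 was highest with both transgenes and lowest with empty vectors, each without overlap. It averaged 3731 ± 54.7 in Nanog+Sin3a and 2797 ± 105 in EV (SD, n = 2 arrays each), a log2 difference of 0.42 (SE 0.09, 95% interval 0.19 to 0.64, 1.33-fold higher) with an adjusted p of 0.0492 in limma's test, just inside the threshold. Ube2c, the ubiquitin-conjugating enzyme of the APC/C, read 36.2 and 59.6 in Nanog+Sin3a, 60.1 and 47 in Nanog, 85.3 and 4.6 in Sin3a, and 84.2 and 79.7 in EV. Its difference of -0.82 (SE 0.27) between Nanog+Sin3a and EV, which did not overlap, had an adjusted p of 0.122 in limma's test.

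Among the 7 tested genes of chromosome structure and the spindle, 0 passed the test in Nanog+Sin3a against EV, where 7.45% of all features did. Their differences ran from -0.45 (Tpx2) to 0.20 (Birc5). Tpx2, which activates Aurora A on the spindle, read 208.3 and 230.6 in Nanog+Sin3a, 285.3 and 175.7 in Nanog, 238.9 and 38.2 in Sin3a, and 264 and 341.8 in EV. Nanog+Sin3a lay below EV without overlap, at an adjusted p of 0.301 in limma's test. Kif20a, a kinesin of cytokinesis, read 0.5 and 17.5 in Nanog+Sin3a, -2.5 and -12.3 in Nanog, 20.5 and -1.6 in Sin3a, and 23.4 and -1.5 in EV. It passed the filter through 3 arrays barely above the floor, and its difference of -0.21 rests on values at the floor. Top2a (topoisomerase II alpha), Birc5 (survivin), Cenpf, Kif11 and Nusap1 differed from EV by -0.12 to 0.20.

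**Figure D3:**
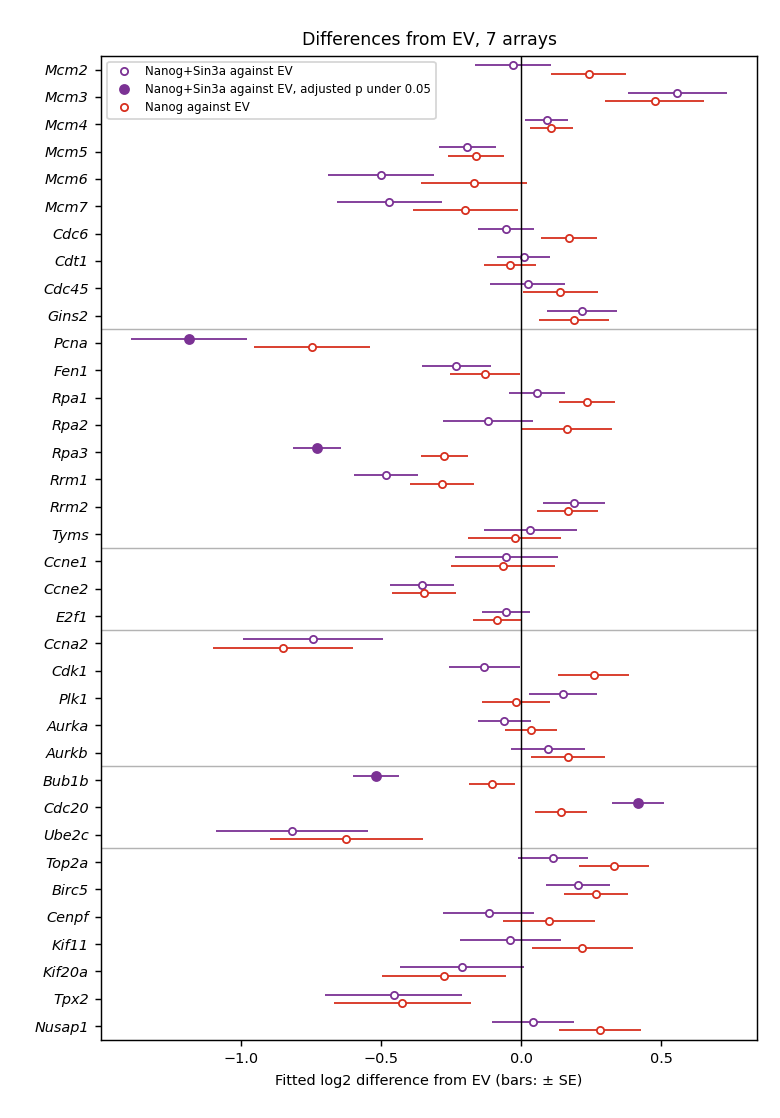
Fitted log2 difference from EV (± SE) of the 36 genes in Nanog+Sin3a and in Nanog, by role, with filled points for an adjusted p under 0.05. The 4 filled points are Pcna, Rpa3 and Bub1b on the negative side and Cdc20 on the positive side, all in Nanog+Sin3a, and most other points lie within 0.5 of 0.

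Nanog alone, against empty vectors, changed 0 of the 36 genes by limma's test, where 2.69% of all 12886 features were called. The 2 comparisons share the EV arrays, so their values are given side by side and not as independent results. At an unadjusted p under 0.05 there were 7 of 36 genes (19.4%), against 19.5% of all features, and the fit of all 8 arrays gave 0 calls and 5 genes at that level (13.9%, against 7.68% of all features). Over bright features 0 of 21 genes were called, where 9.65% of bright features were. The median difference was 0.01. Pcna differed by -0.75 (SE 0.21, adjusted p 0.126 in limma's test), against -1.19 in Nanog+Sin3a. Ccna2 differed by -0.85 (SE 0.25, adjusted p 0.140 in limma's test), against -0.74 in Nanog+Sin3a. Rpa3 differed by -0.27 (SE 0.08, adjusted p 0.152 in limma's test), against -0.73 in Nanog+Sin3a. Bub1b differed by -0.10 and Cdc20 by 0.14. On the higher side, Mcm3 differed by 0.48 and Top2a, which untangles sister chromatids, by 0.33, while another Top2a probe gave -0.44 (adjusted p 0.261 in limma's test). In 13 genes both Nanog arrays lay above both EV arrays and in 9 below, 36.1% and 25% of the 36, against 25.1% and 24.6% of all features.

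Adding Sin3a to Nanog (Nanog+Sin3a against Nanog) changed 0 of the 36 genes by limma's test, where 0.0155% of all features were called, and 4 genes (11.1%) had an unadjusted p under 0.05, against 11% of all features. Over bright features 0 of 21 genes were called, where 0.261% of bright features were. The 4 genes were Rpa3 at -0.46 (SE 0.08, adjusted p 0.206 in limma's test), Bub1b at -0.41 (SE 0.08, adjusted p 0.211), Cdk1 at -0.39 (SE 0.13, adjusted p 0.347) and Cdc20 at 0.27 (SE 0.09, adjusted p 0.363). Each of the 4 had no overlap between its Nanog+Sin3a and Nanog arrays on its brightest probe. Over the 36 genes, 2 were higher without overlap and 12 lower (5.6% and 33.3%), against 2300 and 2167 of 12886 features. On the other Cdc20 probes the Nanog+Sin3a and Nanog arrays overlapped. The other Bub1b probe went the opposite way, at 347 and 290.8 in Nanog+Sin3a, against 265 and 279.7 in Nanog. Cdk1 read 1599.3 and 1590.2 in Nanog+Sin3a, against 1866.9 and 2342.7 in Nanog, and its EV arrays at 1644.2 and 1856.7 lay between. The 95% interval of the difference ran from -0.66 to -0.25 for Rpa3 and from -0.94 to 0.06 for Pcna. The median over the 36 genes was -0.10.

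Sin3a alone, against empty vectors, changed 0 of the 21 bright genes by limma's test over 2300 bright features, of which 0.174% were called, and 0 of the 21 had an unadjusted p under 0.05, against 7.83% of bright features. The differences ran from -0.30 (Mcm6) to 0.25 (Rrm2), with a median of 0.04. Rpa3 differed by -0.17 (95% interval -0.40 to 0.06), Bub1b by -0.28 (95% interval -0.59 to 0.04) and Cdc20 by 0.14 (95% interval -0.07 to 0.34). The Bub1b value was -0.0391 without Sin3a replicate 2 and -0.51 without Sin3a replicate 1. The 15 dimmer genes, Pcna among them, were not tested here because Sin3a replicate 2 departs from its partner in that range.

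Adding Nanog to Sin3a (Nanog+Sin3a against Sin3a) changed 1 of the 21 bright genes, 4.76%, where 11.6% of the bright features were called. That gene was Rpa3, with a difference of -0.56 (SE 0.11, 95% interval -0.79 to -0.33) and an adjusted p of 0.00266 in limma's test. Without Sin3a replicate 2 the difference was -0.51 and the adjusted p 0.0640, and with all features above the floor in the 8 arrays the adjusted p was 0.0947, so the call was lost in both. Cdc20 differed by 0.28 (adjusted p 0.0655 in limma's test) and Rrm1 by -0.34 (adjusted p 0.0699). Both had no overlap between the groups on the brightest probe, while another Rrm1 probe overlapped. Leaving out either Nanog array, which is in neither group, also changed the count of genes called. The count of all bright features called moved too in the fits that left out 1 array.

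Whether the difference made by Sin3a depended on Nanog was tested as the Sin3a difference with Nanog minus that without it. Of the 21 bright genes 0 passed limma's test, where 0.0435% of bright features were called, and 0 had an unadjusted p under 0.05, against 6.52% of bright features. The values ran from -0.38 (Nusap1, a spindle microtubule protein) to 0.20 (Tyms), with a median of -0.12. For Rpa3 the value was -0.28 (95% interval -0.61 to 0.04), and for Cdc20 it was 0.14 (95% interval -0.15 to 0.43).

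Other probes of the same genes gave a second reading for 16 of the 36. In Nanog+Sin3a against EV, 19 of 28 such probes had the sign of the brightest probe, 1 (of Cdk1, at the floor) showed no difference, and in 6 genes (Mcm4, Gins2, Tyms, Bub1b, Top2a and Nusap1) at least 1 probe had the opposite sign. Bub1b was among them: its other probe read 347 and 290.8 in Nanog+Sin3a, 265 and 279.7 in Nanog, 280.3 and 328.9 in Sin3a, and 248.7 and 254.7 in EV. That probe was higher with both transgenes than in EV, by 0.34 (SE 0.12, adjusted p 0.146 in limma's test), so the lower Bub1b call holds for 1 of its 2 probes. Cdc20 had 3 further probes, all higher in Nanog+Sin3a, by 0.35, 0.45 and 0.77. The last read 1517.7 and 1370.4 in Nanog+Sin3a, 1248.9 and 1381 in Nanog, 926.4 and 957.7 in Sin3a, and 870.2 and 826.3 in EV. It passed limma's test in Nanog+Sin3a (adjusted p 0.0128) and in Nanog against EV (difference 0.63, adjusted p 0.0330). Mcm6 had 3 further probes at -1.58 (adjusted p 0.0343 in limma's test), -1.04 (adjusted p 0.0588) and -0.11 (adjusted p 0.695). The first was dim, at 47.3 and 28.7 in Nanog+Sin3a, against 96.4 and 125.4 in EV. So was the second, at 31 and 23.5, against 59.6 and 51.6. The third, the brightest of the 3, read 1022.9 and 825.9 in Nanog+Sin3a and 878.7 and 1120.2 in EV, which overlapped. Rpa3 and Pcna have a single probe each. In Nanog against EV, 15 of 28 other probes had the sign of the brightest, and 11 of the 16 genes had at least 1 probe of the opposite sign. Some of the opposite probes lay near the floor in the Nanog and EV arrays, such as those of Mcm4 (14.4 to 35.8) and Cenpf (23.1 to 42.2). Others did not, such as those of Bub1b (248.7 to 279.7) and Mcm6 (878.7 to 1130.6).

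**Figure D4:**
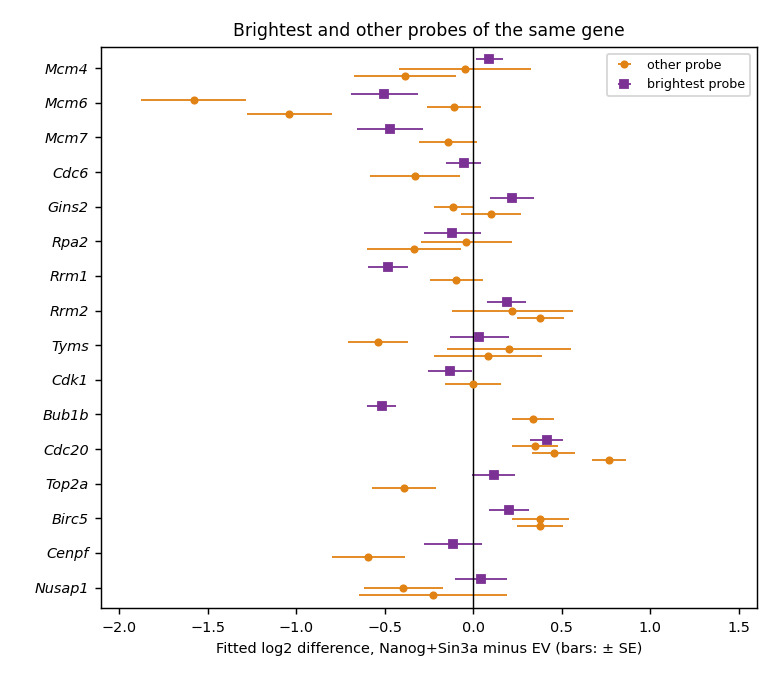
Fitted log2 difference (± SE) between Nanog+Sin3a and EV for the brightest probe (squares) and the other tested probes (circles) of the 16 genes with more than 1 tested probe. The Cdc20 probes all lie right of 0, and the Bub1b probes lie on opposite sides.

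A further list of 83 replication and mitosis genes was read the same way; 74 of them were tested. In Nanog+Sin3a against EV, 4 rose and 2 fell (8.11%, against 7.45% of all features), with a median of -0.04 over the 74. Foxm1, a transcription factor for G2/M genes, read 585.6 and 542.1 in Nanog+Sin3a, 468.5 and 443.6 in Nanog, 344.6 and 58 in Sin3a, and 297.7 and 344.9 in EV. It was higher in both groups with Nanog than in EV, without overlap. The difference between Nanog+Sin3a and EV was 0.81 (SE 0.11, adjusted p 0.0132 in limma's test), and a second probe gave 0.85 (adjusted p 0.0126). Gins1, a subunit of the GINS helicase cofactor, read 465.7 and 447.6 in Nanog+Sin3a, against 196.4 and 258.8 in EV, a difference of 1.02 (SE 0.20, adjusted p 0.0353 in limma's test), while its partner Gins2 differed by 0.22. The phosphatase Cdc25c, which activates Cdk1, differed by 0.58 (adjusted p 0.0433 in limma's test) and the condensin subunit Ncapd2 by 0.44 (adjusted p 0.0476). Further Ncapd2 probes gave 0.11 (adjusted p 0.842 in limma's test) and 0.0904 (adjusted p 0.854). Cks2, a small Cdk-binding protein, read -14.9 and 13.2 in Nanog+Sin3a, 16.9 and 32.7 in Nanog, 58.5 and 0.9 in Sin3a, and 61.9 and 73.3 in EV. It lay below the floor of 16 in both Nanog+Sin3a arrays and was at least 4.21-fold lower than in EV (adjusted p 0.0192 in limma's test). The condensin subunit Ncapg was likewise below the floor in Nanog+Sin3a, at 14.6 and 15.8, against 51.1 and 53.2 in EV, at least 3.26-fold lower (adjusted p 0.0275 in limma's test). A second Ncapg probe gave -0.96 (adjusted p 0.0289 in limma's test). It too was at the floor, at 16.4 and 14.3 in Nanog+Sin3a, against 31 and 32 in EV. Each of the 6 calls was lost in 4 to 6 of the 7 fits that leave out 1 array.

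In the other comparisons the further list held few calls. Nanog against EV gave 0 of 74, the largest difference being -1.52 for Cks2 (adjusted p 0.0689 in limma's test). Nanog+Sin3a against Nanog gave 0 of 74, the largest being 1.29 for the origin recognition subunit Orc2 (adjusted p 0.206 in limma's test). Orc2 was near the floor, at 38 and 44.6 in Nanog+Sin3a, against 17.8 and 10.3 in Nanog. Its difference ran from 0.36 to 1.29 over the other settings that kept every array of both groups. Nanog+Sin3a against Sin3a gave 2 of 24 bright genes, both higher (8.33%, against 11.6% of bright features). They were thymidine kinase Tk1, which recycles thymidine, at 0.52 (adjusted p 0.00718 in limma's test) and Cdca3, a trigger of mitotic entry, at 0.37 (adjusted p 0.0357). Tk1 read 1011 and 1189 in Nanog+Sin3a, against 798.6 and 736.7 in Sin3a. Of the 8 fits that leave out 1 array, 2 lost the Tk1 call and 4 the Cdca3 call. Sin3a against EV, and the Sin3a difference with Nanog minus that without it, gave 0 of 24 each, with the largest values at -0.37 for the kinetochore gene Spc24 and 0.30 for Tk1. The Spc24 value was -0.11 without Sin3a replicate 2, -0.64 without Sin3a replicate 1, -0.59 without EV replicate 1 and -0.16 without EV replicate 2.

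Markers of other cell types had different levels in these groups and were not tested. The summed intensity of 6 neural stem cell markers was 58.1 to 77.7 in Nanog+Sin3a, 84.8 to 93.3 in Nanog, 146 to 273.5 in Sin3a, and 108.4 to 116.5 in EV. The highest sum is that of Sin3a replicate 2, where Gfap read 241.2 and Nes 0.6, and Gfap was below the floor in the other 7 arrays. Nes was the highest of the 6 in 7 arrays, at 60.3 and 57.7 in Nanog+Sin3a, against 97.8 and 105.6 in EV, and Fabp7 was below the floor in all arrays. The summed intensity of 7 fibroblast markers was 106.1 to 121.2 in Nanog+Sin3a, 52.4 to 65.5 in Nanog, 21.4 to 210.7 in Sin3a, and 24 to 29 in EV, and Col3a1 was below the floor in all arrays. Dcn made up most of the Nanog+Sin3a sum, at 92.6 and 79.4, against 14.3 and -3.1 in EV, and was the 1 marker of the 7 above the floor in both Nanog+Sin3a arrays. In EV, 0 of the 7 fibroblast markers lay above the floor in both arrays. The highest Sin3a sum again lay in replicate 2, with Postn at 174.2 and Lum at 36.5. Of 9 pluripotency markers, 3 lay above the floor in both Nanog+Sin3a arrays, 5 in both Nanog arrays, 2 in both Sin3a arrays and 5 in both EV arrays. These counts turned on markers near the floor, such as Tdgf1 (7.6 and 33.1 in Nanog+Sin3a) and Dppa5a (30.5 and -12.6 in Sin3a). The summed intensity of the 9 overlapped among the groups. It was 1184.8 to 1361.8 in Nanog+Sin3a, 1275.7 to 1453.7 in Nanog, 986.5 to 1401 in Sin3a, and 1314.6 to 1466.8 in EV. The part of these markers in the differences of Rpa3, Pcna, Bub1b and Cdc20 was not tested.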

How the data were processed

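RNA of 8 arrays (4 groups of 2, grouped by the labels) was read as probe intensity. The deposited intensity values were made by the authors with GenomeStudio, per the submitters' processing notes, with settings not given in the sources used here. Tested on the values, they were linear, with 47.3% to 47.7% below 0 among 45281 probes, so a background had been subtracted. Sorted values of 7 arrays deviated by at most 0.741% and those of Sin3a replicate 2 by 4.18%, so they were taken as already quantile-normalised and were not normalised again. Probes above an intensity of 16 numbered 16157 to 16365 per array, and the number of arrays limits the precision.

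Probes were named through GEO's platform annotation: 34885 probes had 1 symbol, 18 several and 10378 none. Intensities were raised to a floor of 16 and converted to log2, with the brightest probe per symbol as the feature. Differences were fitted with limma 3.58.1 in R 4.3.3 (1 coefficient per group, eBayes with a trend, two-sided, Benjamini-Hochberg at 0.05 over all features), with 3 residual degrees of freedom in the 7-array fits and 4 in the 8-array fits. The script was tested on simulated data. In all, 6 comparisons were made; called means an adjusted p under 0.05.

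The genes, their roles, the further list of 83 genes and the markers were chosen with earlier results of these data known, as was the setting aside of Sin3a replicate 2. Values in every array are given for genes that passed a test and, in each role, for the 2 with the largest difference between Nanog+Sin3a and EV. From the further list, up to 4 per direction that passed are named, or the 1 with the largest difference. Alternatives were other sets of arrays and features, array weights, a floor of 32, no filter, renewed normalisation or centring, every probe as a feature, a replicate block and leaving out each array. Replicate numbers did not pair the arrays.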

Additional observations from a re-analysis of the deposited data

How the results depend on the processing

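The calls rest on few arrays. In Nanog+Sin3a against EV, 960 features were called, and 35 with all 8 arrays, 392 over bright features alone and 125 with no filter on low values. Of the genes described here 4 were called, and 1 with all 8 arrays and 1 with no filter; their median of -0.05 was 0.00871 over the bright ones. In Nanog against EV, 347 features were called, and 0 with all 8 arrays, 222 over bright features, 834 with array weights, 573 with a floor of 32 and 47 with no filter. Array weights called 1 gene (Pcna), where 0 were called otherwise, and the median of 0.00891 was 0.0352 over bright features and with a floor of 32. In Nanog+Sin3a against Nanog, 2 features were called, and 0 with all 8 arrays, 6 over bright features, 11 with array weights, 17 with a floor of 32 and 16 with no filter, where the median of -0.10 was -0.0684.

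In Sin3a against EV, 4 bright features were called, and 2 without Sin3a replicate 2 and 11 with array weights; the median of 0.04 was 0.000696 without that array. In Nanog+Sin3a against Sin3a, 266 features and 1 gene were called, and 81 and 0 without Sin3a replicate 2, with a median of -0.0422 in place of -0.0728, while array weights called 3 genes. For the Sin3a difference with Nanog minus that without it, 1 feature was called, and 2 with array weights; the median of -0.12 was -0.0753 without Sin3a replicate 2. Chosen after seeing the data, fits of all features above the floor were run for these 3 comparisons with 8 and 7 arrays. They called 0 and 0 features in Sin3a against EV (medians -0.0613 and -0.0259) and 0 and 0 for the difference between the Sin3a differences (medians -0.0542 and -0.0646). In Nanog+Sin3a against Sin3a they called 19 and 250 features and 0 and 0 genes (medians -0.0509 and -0.0859). The cause of these shifts was not tested.

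Leaving out each array in turn gave 0 to 1009 features and 0 to 4 genes in Nanog+Sin3a against EV (median -0.0926 to -0.0483), 0 to 395 features and 0 genes in Nanog against EV (0.00891 to 0.0790), and 0 to 6 features and 0 genes in Nanog+Sin3a against Nanog (-0.14 to -0.0707). It gave 1 to 12 features and 0 genes in Sin3a against EV (-0.00133 to 0.0690), 81 to 446 features and 0 to 3 genes in Nanog+Sin3a against Sin3a (-0.13 to -0.0422), and 0 to 17 features and 0 genes for the difference between the Sin3a differences (-0.16 to -0.0753). A group left with 1 array took its spread from the rest of the fit. The Kif20a difference between Nanog+Sin3a and EV ran from -0.48 without EV replicate 2 to 0.0646 without EV replicate 1, where it turned positive.

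The replicate numbers did not pair the arrays: the deviations of same-numbered arrays correlated at -0.0605 to 0.0167 over 12886 features. With the replicate number as a block, 530 features and 3 genes were called in Nanog+Sin3a against EV, with Cdc20 at an adjusted p of 0.0869 in limma's test, 198 features in Nanog against EV and 0 in Nanog+Sin3a against Nanog. Among the further genes Cdc25c and Ncapd2 also lost their call with the block.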
